A study of Mus musculus with 6 samples.

Results

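The nucleic acid-sensing Toll-like receptors (TLRs) that work inside endosomes, together with the proteins that fold, escort and connect them, were examined in RNA of bone marrow megakaryocytes (MKs) sorted by flow cytometry (FACS). The 10 genes were taken by symbol from the 16579 genes of the expression table: the receptors *Tlr3*, *Tlr7*, *Tlr8*, *Tlr9* and *Tlr13*, the trafficking and folding factors *Unc93b1*, *Cnpy3* and *Hsp90b1*, the endolysosomal transporter *Slc15a4* and the adaptor *Myd88*. All 10 were present in the table and all 10 passed the expression filter, which kept 12256 genes. The genes were chosen by function, with the count and FPKM differences between these genotypes already known from an earlier look at the same libraries. Differences between the genotypes, p-values included, are therefore given as a description, in which the share of all genes that passed the same thresholds stands beside each count.

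Endosomal TLRs bind RNA or DNA released from microbes or dying cells after uptake. They are made in the endoplasmic reticulum, folded with the help of gp96 (encoded by *Hsp90b1*) and its partner Cnpy3, and carried to endosomes by Unc93b1, where proteases trim them into their active form. Most of them signal through Myd88 to NF-κB and interferon regulatory factors, whereas Tlr3 uses the adaptor encoded by *Ticam1*. In the bone marrow they are best known from monocytes, macrophages, dendritic cells and B cells.

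The 6 libraries came from 3-month-old mice, 3 of the genotype Becn1f/f and 3 labelled Becn1f/f;Pf4-iCre. Both genotypes carry floxed *Becn1*, and the second also carries Cre recombinase driven by *Pf4* regulatory sequence, which is used to delete *Becn1* in the megakaryocytic lineage and acts only where that sequence is active. Nothing in the labels says more about the mice than genotype and number, so p-values measure the spread between these 6 libraries. Estimated counts summed to between 16467560 and 17156728 per library, and libraries of the same genotype were further apart than counting noise allows, with chi-square values of 14.6 to 47.6 for each degree of freedom. *Becn1* itself had 2034, 1892 and 2103 estimated counts in Becn1f/f libraries 1, 2 and 3, and 1775, 1731 and 1849 in the libraries labelled Becn1f/f;Pf4-iCre, giving a log2 fold change of -0.15 with a standard error of 0.12. The quasi-likelihood test of edgeR gave it an adjusted p of 0.94. The study itself reported lower *Becn1* mRNA by quantitative PCR in marrow cells sorted as CD41+ and no change in CD41- cells. It also reported less colocalization of Becn1 with CD41 in marrow MKs by imaging flow cytometry, and no detectable Becn1 protein in platelets. Since the targeted transcript differed so little in these libraries, the second group is called by its label throughout. These counts are of the whole gene in the whole sorted sample. They therefore do not measure how far *Becn1* was deleted in MKs, which was not tested.

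Most markers that define MKs were low in every library. The summed level of 16 MK and platelet genes was 577.3 to 834.3 CPM (counts scaled to library size with TMM factors) over the 6 libraries. Of this sum, 88.1% to 92.8% came from *Nbeal2*, *Itga2b*, which encodes CD41, and *Itgb3*, with means of 362, 173 and 114 CPM in Becn1f/f mice and 299, 155 and 123 in the libraries labelled Becn1f/f;Pf4-iCre. The other 13 genes lay between 0.119 and 25.1 CPM in every library. Among these, *Pf4* averaged 4.87 CPM in Becn1f/f mice and 2.42 in the libraries labelled Becn1f/f;Pf4-iCre, and *Gp9*, a subunit of the von Willebrand factor receptor, 1.55 and 1.62. In contrast, 10 monocyte markers summed to between 6143.8 and 8527.4 CPM, and 16 neutrophil markers to between 9766.0 and 17673.3 CPM. The monocyte sum was also uneven. *Chil3* and *F13a1* led it, with means of 2010 and 1750 CPM in Becn1f/f mice and 2280 and 2290 in the labelled group. *Nr4a1* of the same list varied widely, at 866 ± 358 CPM in Becn1f/f mice and 1350 ± 419 in the labelled group (SD, n = 3 each), and overlapped. *Ly6c2* and *Ccr2* averaged 685 and 597 CPM in Becn1f/f mice and 730 and 834 in the labelled group. The values below are thus levels in the whole sorted sample. In such samples, fewer cells of a type and less RNA per cell cannot be told apart. The Y-linked gene *Ddx3y* had 1370 to 2526 estimated counts in all 6 libraries, so Y-linked transcripts were present in both genotypes.

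The promoters of *Tlr13* and *Tlr8*, whose levels were separate between the genotypes, are shown beside that of *Tlr9*, whose level overlapped, so that the sequences in front of these genes can be read next to their levels. RefSeq promoters (GRCm38.p6) were matched for 8 of the 10 genes, all but *Tlr7* and *Unc93b1*, and the 250 bases before the annotated start are given, 5′ to 3′ on the strand of the gene. The submitters' notes name GRCm39, so these coordinates are those of the RefSeq table and not of the deposited values. The *Tlr13* stretch is chrX:106143025-106143274 on the plus strand, the *Tlr8* stretch chrX:167264330-167264579 on the minus strand and the *Tlr9* stretch chr9:106222348-106222597 on the plus strand. Capitals mark letters found by a search of both strands for the core bound by PU.1 (GAGGAA), an interferon-stimulated response element, a C/EBP motif (TTGCNNAA), an E-box of the TFEB family (CACGTG) and a TATA box (TATAAA).
Tlr13: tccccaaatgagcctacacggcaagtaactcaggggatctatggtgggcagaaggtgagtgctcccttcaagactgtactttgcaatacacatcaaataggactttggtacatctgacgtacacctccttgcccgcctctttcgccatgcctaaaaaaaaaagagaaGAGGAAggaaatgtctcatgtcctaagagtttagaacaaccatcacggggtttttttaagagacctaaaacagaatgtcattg
Tlr8: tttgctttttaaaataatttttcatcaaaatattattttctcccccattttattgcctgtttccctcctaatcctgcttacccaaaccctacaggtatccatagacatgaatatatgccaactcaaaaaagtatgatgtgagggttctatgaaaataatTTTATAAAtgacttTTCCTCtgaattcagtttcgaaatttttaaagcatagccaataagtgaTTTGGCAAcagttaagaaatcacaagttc
Tlr9: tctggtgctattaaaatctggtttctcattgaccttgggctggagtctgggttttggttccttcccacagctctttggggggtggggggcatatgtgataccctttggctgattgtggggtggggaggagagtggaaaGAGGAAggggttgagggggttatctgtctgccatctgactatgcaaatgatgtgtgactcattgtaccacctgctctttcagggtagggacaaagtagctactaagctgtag

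The PU.1 core, the motif of a transcription factor of the myeloid and B lineages, was found once in each of the 3 stretches. It lay 83 to 78 bases before the start of *Tlr13* and 112 to 107 bases before that of *Tlr9* on the gene's strand, and 77 to 72 bases before that of *Tlr8* on the opposite strand. The *Tlr8* stretch also held a C/EBP match and a pair of overlapping TATA box matches, 1 on each strand. Over the 8 matched promoters, the PU.1 core was present in 5, the C/EBP motif and the TATA box in 3 each, and the E-box and the response element in 1 each, the E-box in *Cnpy3* and the response element in *Myd88*. Of 32851 promoter windows of the same length, 23.3% held the PU.1 core, 9.56% the C/EBP motif, 12.4% the TATA box, 6.02% the E-box and 2.98% the response element. A match describes letters in a window and does not show that a factor binds there.

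To compare the genes with each other, the FPKM values were used, which the authors scaled for transcript length and library size. *Hsp90b1*, a chaperone of the endoplasmic reticulum with many clients beside TLRs, had the highest level, at 344.78 to 464.94 FPKM over the 6 libraries. *Unc93b1* followed at 130.46 to 231.59 FPKM, and its mean of 186 FPKM lay above that of 97.2% of the genes in the table. The escort was thus far above each of the receptors it carries. *Myd88* and *Cnpy3* had means of 67.0 and 63.3 FPKM and overlapping ranges, and *Myd88* was the higher of the pair in 4 of 6 libraries.

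Among the receptors, *Tlr13*, which recognizes bacterial ribosomal RNA in mice, was the highest, at 37.12 to 55.05 FPKM. It exceeded *Slc15a4*, the transporter that works with *Tlr7* and *Tlr9* in the endolysosome and ranged from 21.31 to 30.56 FPKM, in all 6 libraries. *Tlr8*, *Tlr7* and *Tlr9* had means of 13.9 ± 4.57, 12 ± 4.18 and 12 ± 2.58 FPKM (SD, n = 6 over both genotypes). Their ranges overlapped, and the order of the means was not the same in both genotypes. In Becn1f/f mice *Tlr9* had the highest mean of the 3, at 11 FPKM against 10.4 for *Tlr8* and 8.64 for *Tlr7*. In the labelled group it had the lowest, at 13 FPKM against 17.5 and 15.4. *Tlr3*, the receptor for double-stranded RNA, was at 0.31 to 0.71 FPKM, with 21 to 47 estimated counts per library. In the order of the 10 means, 6 of the 9 neighboring pairs kept their order in every library.

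**Figure D1:**
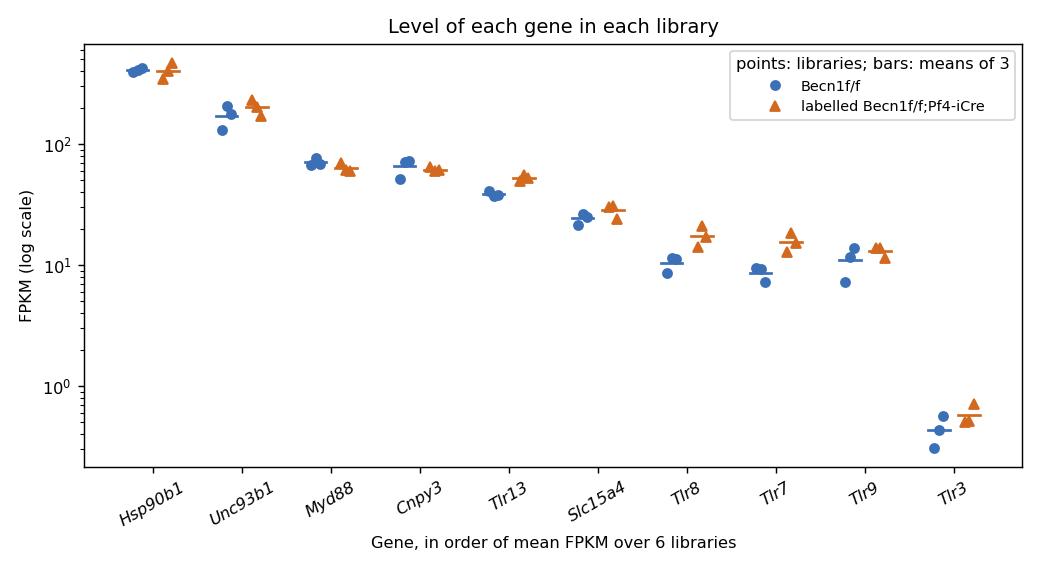
FPKM (log scale) of the 10 genes in order of their mean over 6 libraries. Circles are Becn1f/f libraries, triangles the libraries labelled Becn1f/f;Pf4-iCre, and bars the means of 3. *Hsp90b1* is highest at a mean of 406 FPKM and *Tlr3* lowest at 0.505, and the symbols of the genotypes are separate for *Tlr13*, *Tlr8* and *Tlr7*.

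The receptors were then compared between the genotypes. *Tlr7*, *Tlr8* and *Tlr13*, which sense single-stranded RNA and are all encoded on chromosome X, were higher in every library labelled Becn1f/f;Pf4-iCre than in any Becn1f/f library, whereas *Tlr9* and *Tlr3* overlapped. *Tlr7* and *Tlr8* passed the thresholds for differentially expressed genes (DEGs), a fold change of at least 1.5 and an unadjusted *P* under 0.05, and *Tlr13* did not, at a fold change of 1.37. In all, 2 of the 10 genes were DEGs, both higher, beside 2.30% of all tested genes in either direction and 1.36% in the higher direction. For 3 of the 10 genes the CPM ranges of both genotypes were separate, beside 10.6% of all tested genes in either direction and 5.42% in this direction. The edgeR test left 0 of the 10 at an adjusted p under 0.05, beside 0.0408% of all tested genes, and 3 of the 10 at an unadjusted *P* under 0.05, beside 6.31%. DESeq2 gave 2 genes with an adjusted p under 0.05, *Tlr7* and *Tlr8*, beside 0.61% of all genes with such a value, and limma-voom gave 0, beside 0.0408%.

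*Tlr7*, a receptor for guanosine- and uridine-rich single-stranded RNA, had 40.9, 37.7 and 30.5 CPM in Becn1f/f libraries 1, 2 and 3. In the libraries labelled Becn1f/f;Pf4-iCre 1, 2 and 3 it had 55.1, 72.6 and 60.2 CPM. The lowest of these exceeded the highest Becn1f/f value, and library 2 of the labelled group was the highest of all. The means were 36.3 ± 5.33 and 62.6 ± 9 CPM (SD, n = 3 each). The log2 fold change was 0.79 with a standard error of 0.16, at an adjusted p of 0.13 in edgeR and of 0.70 without library 2 of the labelled group. Its estimated counts were not whole numbers in any library, so some of its reads were divided among loci by the authors' counting and its level is less certain than that of the other 9 genes, whose counts were whole.

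*Tlr8* lies next to *Tlr7* in the RefSeq annotation, with no other protein-coding gene between them. It had 40.1, 50.6 and 48.8 CPM in Becn1f/f libraries 1, 2 and 3 and 65.7, 96.0 and 77.6 CPM in the libraries labelled Becn1f/f;Pf4-iCre 1, 2 and 3. As for *Tlr7*, library 2 of the labelled group was highest and the groups did not overlap. The means were 46.5 ± 5.63 and 79.8 ± 15.2 CPM (SD, n = 3 each). The log2 fold change was 0.78 with a standard error of 0.16, at an adjusted p of 0.15 in edgeR and of 0.77 without library 2 of the labelled group. The ratio of *Tlr7* to *Tlr8* FPKM was 1.11, 0.811 and 0.644 in Becn1f/f libraries and 0.906, 0.867 and 0.888 in the labelled group, so the ratio overlapped.

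*Tlr13* was the most even of the receptors within a genotype. It had 155.3, 135.4 and 135.2 CPM in Becn1f/f libraries 1, 2 and 3 and 190.0, 201.5 and 193.4 CPM in the libraries labelled Becn1f/f;Pf4-iCre 1, 2 and 3. All labelled libraries lay above all Becn1f/f libraries. The means of 142 ± 11.5 and 195 ± 5.92 CPM (SD, n = 3 each) stood 0.46 apart on the log2 scale with a standard error of 0.13, at an adjusted p of 0.39 in edgeR. A comparison of 3 libraries with 3 by an exact two-sided permutation test cannot give a p below 0.1, which is the value for each of these 3 receptors.

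*Tlr9*, the receptor for DNA with unmethylated CpG, had 23.6, 36.6 and 42.5 CPM in Becn1f/f libraries 1, 2 and 3. In the labelled group it had 45.3, 42.8 and 35.6 CPM. Becn1f/f library 1 was low and the other 5 libraries were mixed, and the log2 fold change was 0.27 (standard error 0.20, 95% confidence interval -0.17 to 0.70). Without Becn1f/f library 1 it was 0.07, and without Becn1f/f library 3 it was 0.45. *Tlr3* had 1.32, 1.67 and 2.26 CPM in Becn1f/f libraries and 2.04, 1.99 and 2.79 in the labelled group, with a log2 fold change of 0.37 (standard error 0.30, 95% confidence interval -0.28 to 1.02). Without Becn1f/f library 3 it was 0.60, and without Becn1f/f library 1 or labelled library 3 it was 0.22 or 0.20. The intervals of *Tlr9* and *Tlr3* hold both no change and folds beyond 1.5, and whether they differ from *Tlr7* and *Tlr8* was not tested.

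Summed over the 5 receptors, the FPKM was 66.28, 69.85 and 70.79 in Becn1f/f libraries 1, 2 and 3, and 91.29, 108.72 and 96.75 in the libraries labelled Becn1f/f;Pf4-iCre. *Tlr13* made up 53.1% to 61.5% of this sum in Becn1f/f libraries and 50.6% to 54.5% in the labelled group. The share of *Tlr9* was 10.9%, 16.8% and 19.7% in Becn1f/f libraries 1, 2 and 3 and 15.2%, 12.6% and 11.7% in the labelled group. The higher sum in the labelled group therefore came mostly from *Tlr13*, *Tlr8* and *Tlr7*. In CPM, the 3 X-linked receptors together had 214.5 to 236.2 in Becn1f/f libraries and 310.9 to 370.1 in the labelled group. *Tlr3* and *Tlr9* together had 24.9 to 44.8 and 38.4 to 47.3. Each of the 3 X-linked receptors was separate between the genotypes by itself, so their sum had to be separate too.

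**Figure D2:**
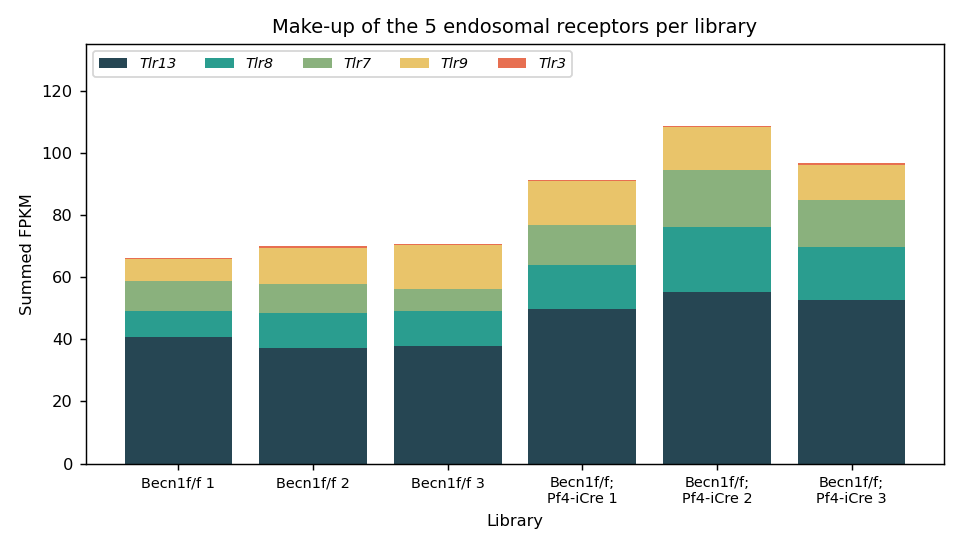
Stacked FPKM of the 5 endosomal receptors in each of the 6 libraries, with 1 bar per library. The 3 bars of the libraries labelled Becn1f/f;Pf4-iCre reach 91.29 to 108.72 and the 3 Becn1f/f bars 66.28 to 70.79, and *Tlr13* is the largest segment of each bar.

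The genes that fold, escort and support the receptors overlapped between the genotypes without exception. *Unc93b1* had 261, 393 and 333 CPM in Becn1f/f libraries 1, 2 and 3 and 467, 391 and 327 CPM in the labelled group. Its lowest value was in Becn1f/f library 1 and its highest in library 1 of the labelled group, with a log2 fold change of 0.26 (standard error 0.18, 95% confidence interval -0.13 to 0.65). It was 0.13 when either of these libraries alone was left out and 0.41 without Becn1f/f library 2. *Slc15a4* had 57.8, 68.0 and 62.5 CPM in Becn1f/f libraries and 82.5, 79.8 and 62.7 in the labelled group, with a log2 fold change of 0.26 (standard error 0.14, 95% confidence interval -0.06 to 0.57). Library 3 of the labelled group was within the Becn1f/f range, and the other 2 were above it.

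*Hsp90b1* had 987, 980 and 1006 CPM in Becn1f/f libraries and 871, 972 and 1130 in the labelled group. The means of both genotypes rounded to 991 CPM, with a 95% confidence interval of -0.31 to 0.31 for the log2 fold change, which leaves out a fold change of 1.5. *Cnpy3* had 84.3, 111 and 112 CPM in Becn1f/f libraries and 106, 92.8 and 95.9 in the labelled group, with a log2 fold change of -0.07 (standard error 0.14, 95% confidence interval -0.38 to 0.25). *Myd88* had 112, 122 and 106 CPM and 117, 96.7 and 97.0 CPM, respectively, with a log2 fold change of -0.13 (standard error 0.13, 95% confidence interval -0.42 to 0.16). The adjusted p of these 5 genes lay between 0.88 and 1 in the edgeR test. The median log2 fold change of the 10 genes was 0.27, beside -0.02 over all 12256 tested genes.

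**Figure D3:**
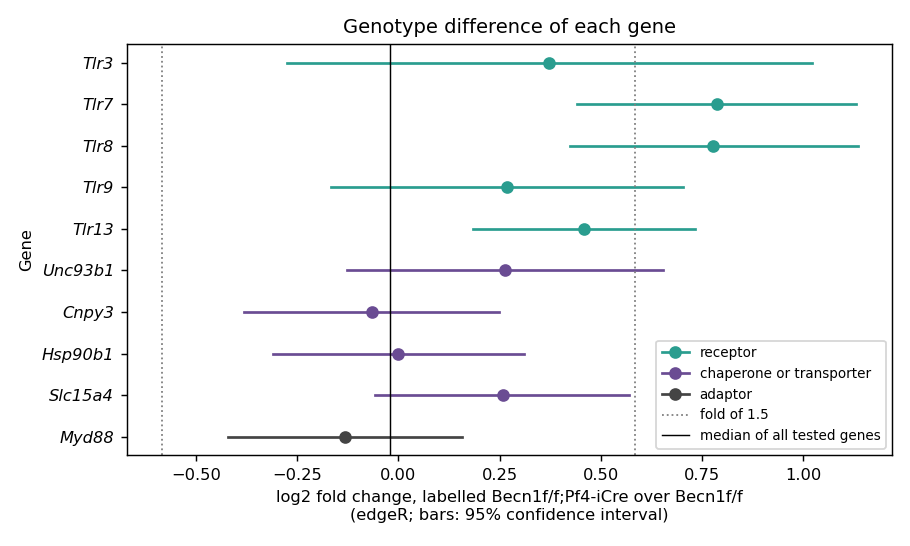
log2 fold change of each gene (points, edgeR) with its 95% confidence interval (bars). Dotted lines mark a fold change of 1.5 and the solid line the median of all tested genes. The intervals of *Tlr7*, *Tlr8* and *Tlr13* lie above that median, with lower ends at 0.44, 0.42 and 0.18, and those of the other 7 genes cross it.

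Base composition differed between the receptors and moved with the fold changes. The longest GENCODE M21 transcripts of *Tlr3*, *Tlr7*, *Tlr8* and *Tlr13* have a GC content of 40.0%, 41.0%, 40.1% and 43.6%, whereas *Tlr9*, *Unc93b1*, *Cnpy3*, *Slc15a4* and *Myd88* lie between 53.6% and 57.7% and *Hsp90b1* has 43.8%. Over 12025 tested genes with a known sequence, which are not independent, the log2 fold change followed GC content with a Spearman correlation of -0.355. With the trend of each library in GC content and length taken out, the log2 fold changes were 0.69 for *Tlr7*, 0.67 for *Tlr8* and 0.41 for *Tlr13*, and the same 2 genes were DEGs. For *Tlr9*, *Unc93b1* and *Slc15a4*, the GC-rich genes that were higher in the labelled group, the values grew to 0.37, 0.38 and 0.35. In this fit 6 of the 10 genes had an unadjusted *P* under 0.05, beside 8.02% of all genes, and 0 had an adjusted p under 0.05 by edgeR. Of the 396 tested genes on chromosome X, 197 were higher in the labelled group, their median log2 fold change was -0.003, and 7 were called higher and 2 lower. Of the 11860 other tested genes, 5382 were higher, with a median of -0.021, and 160 were called higher and 113 lower.

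The summed markers of monocytes, conventional dendritic cells and macrophages were higher in every labelled library than in any Becn1f/f library, and those of plasmacytoid dendritic cells and B cells overlapped. The 10 monocyte markers summed to 6316.1, 6780.6 and 6143.8 CPM in Becn1f/f libraries 1, 2 and 3 and to 8459.3, 8527.4 and 7580.7 in the labelled group, a ratio of means of 1.28. Of them, 9 of 10 were higher, with *Cx3cr1*, the fractalkine receptor, the only DEG (log2 fold change of 0.61). Beside this and the following counts of DEGs stand 1.36% of all tested genes called higher and 0.938% called lower. The 10 markers of conventional dendritic cells summed to 134.9 to 170.3 CPM and 220.0 to 257.5 CPM, a ratio of 1.57. *Flt3*, *Cd209a* and *Clec10a* were DEGs with log2 fold changes of 0.74, 0.93 and 0.76, and the other markers overlapped between the genotypes. *Flt3* alone had means of 71.1 CPM in Becn1f/f mice and 119 in the labelled group. *Flt3* is also expressed by progenitor cells. Of the markers of cross-presenting dendritic cells, which are known for *Tlr3*, *Xcr1* and *Batf3* stayed at 9 to 34 estimated counts, and *Clec9a* had 139 to 283.

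Markers of plasmacytoid dendritic cells, a cell type known for *Tlr7* and *Tlr9*, summed to 486.7 to 516.0 CPM in Becn1f/f libraries and 483.1 to 521.4 CPM in the labelled group, a ratio of 1.01. The 14 macrophage markers had a ratio of 1.14, with sums of 805.9 to 851.9 CPM and 864.8 to 1067.8 CPM, and 4 of the 12 tested were DEGs, all higher. *Csf1r* led this sum, with overlapping values and means of 431 and 516 CPM. *Adgre1* averaged 188 CPM in both groups, and *Vcam1* 61.6 and 53.6. The DEGs *Mrc1*, *Cd163*, *C1qc* and *Siglec1* had means of 2.03 to 9.31 CPM in Becn1f/f mice and 3.55 to 22.3 in the labelled group. The 13 measured erythroid markers were all lower, and 6 of them were DEGs, with sums of 677.2 to 1009.8 CPM in Becn1f/f libraries and 529.8 to 668.1 in the labelled group. Of the 16 neutrophil markers 15 were lower and 1 was a DEG, with overlapping sums of 12582.7 to 17673.3 and 9766.0 to 13107.3 CPM. The sums of B-cell markers (204.3 to 350.5 and 209.0 to 268.1 CPM, 1 DEG, lower) and of T and NK cell markers (62.3 to 77.6 and 51.9 to 67.3 CPM, 0 DEGs) overlapped as well. Markers of mast cells, basophils and eosinophils summed to 8578.2, 4640.0 and 4430.0 CPM in Becn1f/f libraries 1, 2 and 3 and to 3458.9 to 5307.1 in the labelled group, with 0 DEGs, so that Becn1f/f library 1 stood above the other 5. Set against the monocyte sum of the same library, the 3 X-linked receptors together had a ratio of 0.0374, 0.0330 and 0.0349 in Becn1f/f libraries. In the labelled group the ratio was 0.0368, 0.0434 and 0.0437, so it overlapped. This overlap depends on which genes are in the monocyte sum. Of them, the uneven *Nr4a1* alone had 1184, 935 and 479 CPM in Becn1f/f libraries 1, 2 and 3. In the labelled group *Nr4a1* had 1795, 1305 and 961 CPM. The part of the cell mixture in the receptor levels was not tested.

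**Figure D4:**
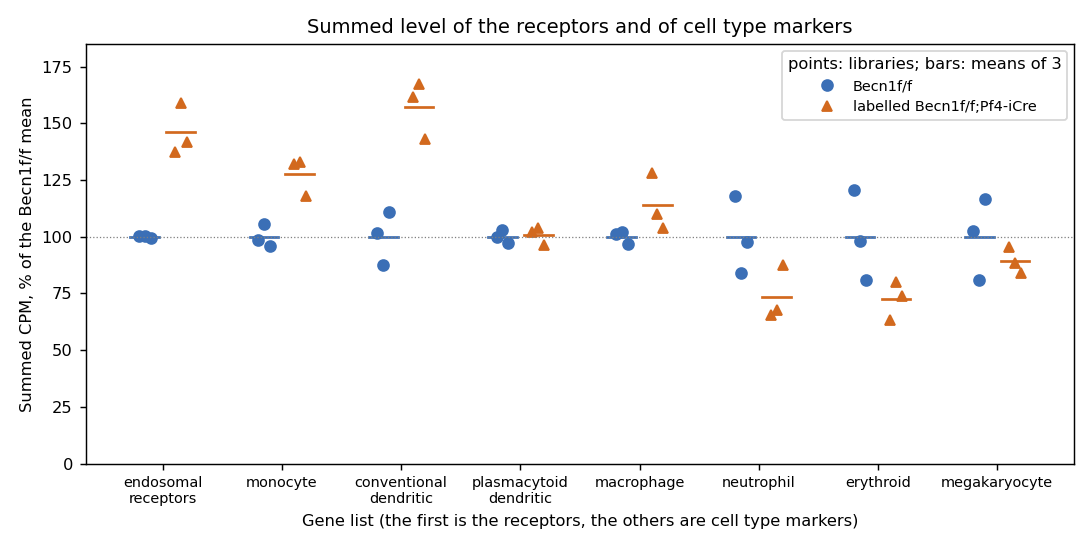
Summed CPM of the 5 endosomal receptors and of 7 lists of cell type markers in each library, as a percentage of the Becn1f/f mean of that list. Points are libraries and bars the means of 3. The receptors, the monocyte markers, the conventional dendritic cell markers and the macrophage markers are higher in all 3 labelled libraries than in the Becn1f/f libraries (ratios of 1.46, 1.28, 1.57 and 1.14), and the plasmacytoid dendritic cell markers sit at 1.01.

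The remaining pathway was read from 110 symbols listed by function, of which 106 were in the table, the rest being second names of genes already listed, and 103 were tested. Of these, 55 were higher and 48 lower in the labelled group, their median log2 fold change was 0.045, and 3 were DEGs. This is 2 higher and 1 lower, beside the 1.36% and 0.938% of all tested genes. At an adjusted p under 0.05 stood 0 genes by edgeR, beside 0.0408% of all genes, and 1 by DESeq2, beside 0.61%. By edgeR, 10 of the 103 had an unadjusted *P* under 0.05, beside 6.31%. The DEGs were *Ly86*, which encodes the partner of the surface TLR homolog Cd180 and had 53.9 ± 10.6 and 83.6 ± 12.6 CPM (SD, n = 3 each, log2 fold change of 0.63), *Trim25*, a ubiquitin ligase of the cytosolic RNA-sensing pathway (0.62), and *Cxcl10*, a chemokine induced by interferon (-0.77). The number of DEGs was 6 without Becn1f/f library 1, 5 without Becn1f/f library 2 and 5 without labelled library 3.

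Among the 11 other TLRs and co-receptors, *Cd14*, a co-receptor that delivers ligands to several TLRs, and *Tlr2*, a receptor for lipoproteins, had the highest FPKM, with log2 fold changes of 0.48 (standard error 0.32) and 0.09 (standard error 0.26). The median over these 11 genes was 0.19. The 20 tested adaptors and kinases had a median of 0.02 and no DEG, and their highest genes, *Ikbkb* and *Tab2*, which act between the receptors and NF-κB, had 0.23 and 0.19. Among the 9 transcription factors, *Irf8* and *Irf5* were highest, at log2 fold changes of 0.005 and 0.27, and the median was -0.009. The 18 genes of endosomal sorting had a median of -0.01, with *Sdcbp*, which encodes the Unc93b1-binding syntenin, at 0.07 and *Ap3s1*, a subunit of the AP-3 sorting complex, at -0.28.

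The 11 proteases and nucleases of the endolysosome, which trim receptors or degrade their ligands, had a median of 0.19 and no DEG, and their highest genes were *Ifi30*, a thiol reductase, at 0.05 and *Ctsb*, a cathepsin, at 0.19. Among 11 negative regulators the median was 0.06, with the feedback genes *Zfp36* and *Dusp1* at 0.25 and 0.54. The 14 tested cytokines and other targets had a median of -0.23 and a range from -1.30 to 0.48, the widest of these lists. Their highest genes were the chemokines *Ccl3* and *Ccl4*, at 0.48 and 0.38. The 9 tested cytosolic sensors and their partners had a median of 0.15, with *Trim25* the highest in FPKM and *Tmem173*, which encodes STING, at -0.06.

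**Figure D5:**
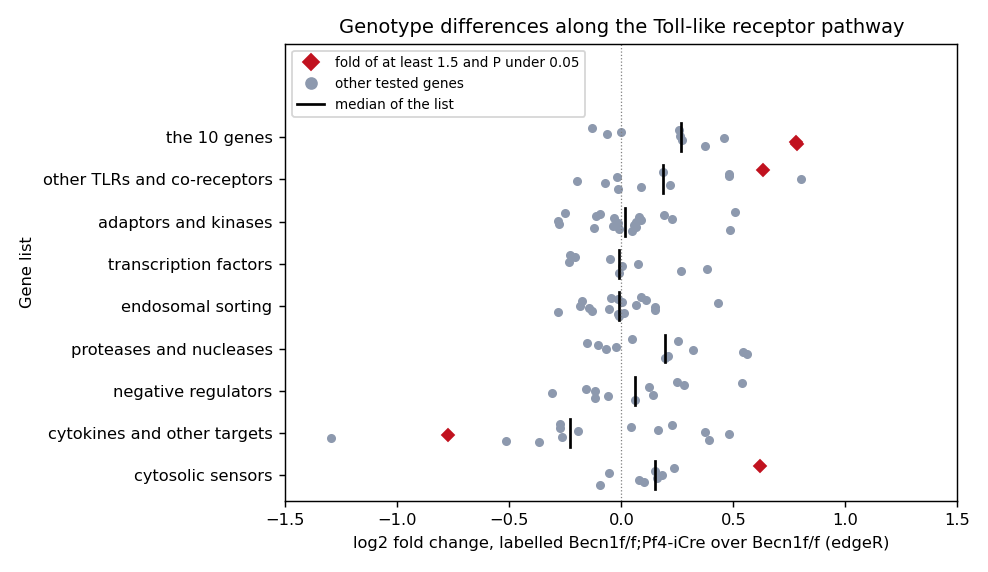
log2 fold change (edgeR) of each tested gene, by list. Diamonds are DEGs, circles other tested genes, and black bars the median of each list. The DEGs are *Tlr7* and *Tlr8* in the top row and *Ly86*, *Cxcl10* and *Trim25* below, and the medians run from -0.23 for the cytokines and other targets to 0.27 for the 10 genes.

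Finally, the tested genes nearest to each receptor over the 6 libraries were listed by root mean square difference. The scale was log2(CPM + 1), with each gene centred on its own mean over both genotypes. The added 1 narrows differences at low CPM, such as those of *Tlr3*. For *Tlr7*, whose values spanned 1.23 on this scale, they were *Clec4a3*, a myeloid C-type lectin receptor gene (0.080), *Stxbp6* (0.0936) and *Fam49a* (0.1). For *Tlr8* they were *Gm4070*, *Zfp658* and the gene that the table lists as a date and RefSeq as *Marchf1*, a ubiquitin ligase of antigen-presenting cells (0.0988 to 0.109). For *Tlr13* they were *Sat1*, *Tet2* and *Cd244a* (0.0582 to 0.0636), and of these *Sat1* is also on chromosome X. *Tlr9* was nearest to *0610040J01Rik*, *Pik3r5* and *Shank3* (0.0665 to 0.0855), and *Tlr3* to *Shank1*, *Heatr5b* and *Cebpa* (0.0568 to 0.0779). Neither *Tlr7* nor *Tlr8* was among the 3 nearest to the other. The genotype difference is part of this distance. All genes listed for *Tlr7* and *Tlr8* were DEGs themselves, with log2 fold changes of 0.617 to 0.818. With 6 libraries and 12256 genes, such lists describe these libraries only.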

How the data were processed

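RNA of sorted bone marrow MKs was sequenced in 3 Becn1f/f libraries and 3 labelled Becn1f/f;Pf4-iCre. The sample labels gave genotype and number. Per the methods of the study, low-quality and adapter-containing reads were discarded and HISAT was used for mapping. The authors deposited estimated counts and FPKM values per gene. The submitters' processing notes also name Bowtie2 and GRCm39, and the counting tool is not given in the sources used here. The deposited estimated counts were unnormalized, 10.3% to 11.3% of genes per library did not have a whole number (within 1e-06), and they were rounded here. The deposited FPKM values are per transcript length and library size. Left unused were 16 other per-sample columns, 4 of them from 1 library that matches none of the samples, and 8 columns of group means.

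After the expression filter and TMM scaling, genotype was tested by the quasi-likelihood method of edgeR 4.0.16 (R 4.3.3), with Benjamini-Hochberg adjustment over all 12256 genes. Standard errors were derived from the log2 fold change and its F statistic. DEG thresholds follow the methods of the study. Libraries held 16467560 to 17156728 counts. Counting error is largest for genes with few counts, such as *Tlr3* with 21 to 47, and the intervals rest on 3 libraries per genotype. The members, lists and tests were chosen with earlier results of these data known. Genes named are the 10 members, pathway genes that were DEGs, the 2 highest by FPKM of each list and the 3 nearest to each receptor. Marker genes are named as examples of their lists, chosen after their values were seen. Alternatives used DESeq2 1.42.0, limma 3.58.1, other scalings and filters, FPKM with a pseudocount of 1 or 0.1, a replicate block, a GC and length correction and each library left out. On simulated data with 200 changed genes of 12159, the edgeR steps called 169 of them and 124 unchanged genes. These counts depend on the simulated effect sizes and spread, and give no error rate for the 10 genes.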

Additional observations from a re-analysis of the deposited data

How the results depend on the processing

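The number of DEGs among the 10 genes was 2, *Tlr7* and *Tlr8*, in 12 of 13 alternatives and without each library in turn (lowest 2, highest 2), and 0 when an adjusted p under 0.05 was required. The adjusted p of *Tlr7* ran from 0.0030 to 0.50 over the other scalings, filters and tools and that of *Tlr8* from 0.0043 to 0.65, the lowest with DESeq2 and the highest with limma on unfiltered log2(FPKM + 1). Without each library, the log2 fold change was 0.67 to 0.88 for *Tlr7*, 0.62 to 0.90 for *Tlr8* and 0.42 to 0.53 for *Tlr13*. The direction turned for *Hsp90b1*, at 0.0038 with DESeq2 size factors, 0.0055 with DESeq2, 0.0025 without a filter and -0.104 to 0.086 without each library, and for *Cnpy3*, at 0.060 with the GC and length correction, 0.064 with that and the replicate block, and -0.182 to 0.003 without each library. Pathway DEGs numbered 2 to 6 without each library and 0 by adjusted p. All DEGs numbered 137 (96 higher, 41 lower) and 121 (88 and 33) with limma on filtered and unfiltered log2(FPKM + 1), 5 by adjusted p, and 225 to 410 without each library, beside 282 (167 and 115). By direction, 267 were higher and 131 lower without Becn1f/f library 1, and 202 and 208 without Becn1f/f library 2. With the replicate block and the GC and length correction, 192 were higher and 82 lower. The order of levels (6 pairs; 6 to 7 without each library) and the summed receptors (log2 ratio of 0.52; 0.45 to 0.58) kept their values within 1 SD or 1.5 times. The causes were not tested.

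The replicate numbers recur in both genotypes, which are different mice, and deviations of same-numbered libraries correlated at 0.04, -0.34 and 0.21, with 2 of 6 libraries nearest to their own number. The replicate block gave 2 DEGs among the 10 genes, 3 in the pathway and 296 in all. With the GC and length correction as well it gave 2, 4 and 274, and an adjusted p of 0.046 for *Tlr7*.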

Other observations

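Some genes linked to these receptors had values that did not overlap between the genotypes without passing the DEG thresholds, and were picked after their values were seen. *5430427O19Rik*, the mouse gene for the adaptor TASL that binds Slc15a4, is also on chromosome X and had 15 ± 2.47 CPM in Becn1f/f mice and 21.3 ± 2.44 in the libraries labelled Becn1f/f;Pf4-iCre (SD, n = 3 each). On the log2 scale the difference was 0.51, with an edgeR adjusted p of 0.51. *Irak1*, a kinase gene of the same list and also on chromosome X, went the other way without overlap. It had 134 ± 8.21 and 123 ± 1.68 CPM (SD, n = 3 each), a log2 difference of -0.12 with an edgeR adjusted p of 0.95. *Ctss*, which encodes cathepsin S, had 309 ± 50.1 and 455 ± 18.4 CPM (SD, n = 3 each). On the log2 scale the difference was 0.56, with an edgeR adjusted p of 0.34. *Il1b*, a cytokine gene downstream of TLRs, had 143 ± 17.5 and 100 ± 14.6 CPM (SD, n = 3 each). On the log2 scale the difference was -0.52, with an edgeR adjusted p of 0.43. In the same list as *Il1b*, *Ccl3* and *Ccl4* were higher in the labelled group without overlap. *Ccl3* had 438 ± 61.2 and 611 ± 38.8 CPM, and *Ccl4* 168 ± 18.7 and 218 ± 4.66 CPM (SD, n = 3 each). Of the 103 tested pathway genes, 9 were higher and 2 lower without overlap. This share is close to the 10.6% of all tested genes in either direction, so by this count the pathway did not stand out. *Ifnb1*, the gene for interferon beta, was below the expression filter.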
